A study of Rattus norvegicus with 6 samples.

Results

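Rffl is an endosomal ubiquitin ligase whose gene lies on rat chromosome 10, and it was examined together with its paralogue Rnf34 and with 3 genes whose products are reported substrates or partners of these ligases, namely Cftr, Ripk1 and Casp8. All probe sets that the array annotation assigns to exactly 1 of these 5 symbols were taken, which gave 8 probe sets of the 31042 tested, covering 5 of 14217 named genes. Rffl, Ripk1 and Casp8 have 2 probe sets each, numbered here from the brighter to the dimmer, and Rnf34 and Cftr have 1 each. The values are log2 probe set intensities from the kidneys of 6 male rats, with 1 Affymetrix array per rat. The control group is 3 inbred Dahl salt-sensitive (S) rats, and the other group is 3 S.LEW(10)x12x2x3x5 congenic rats, a strain on the Dahl S background that by its name carries Lewis (LEW) alleles on a stretch of chromosome 10. All 6 animals were born on the same day, weaned at 30 days, housed in cages of 1 S and 1 congenic rat, fed a diet with 0.3% salt and killed at 53 days. The limits of the congenic stretch and the genes it holds were not placed here, so a difference between the strains is not assigned to Rffl or to any other gene. The other 4 genes lie on chromosomes 12 (Rnf34), 4 (Cftr), 17 (Ripk1) and 9 (Casp8).

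Rffl and Rnf34 are RING-type ubiquitin ligases with a FYVE-like domain at their amino end, which is associated with membranes, and they are also called caspase-associated RING proteins. A RING ligase brings a ubiquitin-loaded conjugating enzyme to its substrate, and ubiquitin on a membrane protein in the endosome can send it to the lysosome in place of the cell surface. Rffl is reported to mark misfolded forms of the chloride channel CFTR at the cell periphery, and both ligases are reported to act on death receptor signalling, in which the kinase RIPK1 and the initiator caspase encoded by Casp8 assemble below the tumour necrosis factor and Fas receptors. These actions are on proteins, and the arrays measured RNA. In whole kidney RNA, fewer cells of a type and less RNA per cell cannot be told apart.

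RefSeq lists 2 start sites for rat Rffl in the GRCr8 assembly, 38873 bases apart on the minus strand, and the 250 bases before each are shown because Rffl is the member on the chromosome that the congenic strain's name gives. The sequence is that of the BN reference strain, and the S and LEW sequences were not analysed here. Capitals mark the GC box GGGCGG, searched on both strands as GGGCGG or CCGCCC. The upstream site is at chr10:68301226-68301475 and the downstream site at chr10:68262353-68262602.
Rffl start 1: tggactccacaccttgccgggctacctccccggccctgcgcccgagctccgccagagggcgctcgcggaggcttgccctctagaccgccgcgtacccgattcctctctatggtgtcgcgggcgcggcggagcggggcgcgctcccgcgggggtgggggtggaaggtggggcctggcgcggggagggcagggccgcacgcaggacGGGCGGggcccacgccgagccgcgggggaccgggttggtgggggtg
Rffl start 2: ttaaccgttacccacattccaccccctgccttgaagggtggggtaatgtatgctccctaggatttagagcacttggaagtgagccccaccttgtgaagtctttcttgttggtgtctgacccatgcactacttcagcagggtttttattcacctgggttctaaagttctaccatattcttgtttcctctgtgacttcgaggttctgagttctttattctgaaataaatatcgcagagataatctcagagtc

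The first window is 78.0% G and C with 33 CpG dinucleotides and holds 1 GC box, and the second is 44.4% G and C with 3 CpG dinucleotides and holds none. Over 33469 such windows of the RefSeq table the medians are 51.2% G and C and 5 CpG dinucleotides, and 30.47% of windows hold a GC box. Which start site feeds either Rffl probe set was not tested.

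For Cftr, 30 bases at the RefSeq start site are shown because they hold a variant cyclic AMP response element, TGACATCA, and an inverted CCAAT box, ATTGG, kinds of element known from the promoter of this cyclic AMP-regulated gene. They lie at chr4:47527624-47527653 on the plus strand, with both elements in capitals. Both elements lie after the RefSeq start site, ATTGG beginning at position 2 and TGACATCA at position 14 from it.
Cftr start: gggggaATTGGaagcaaaTGACATCAcctc

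TGACATCA or its reverse TGATGTCA occurs in 4.34% of all 300-base promoter windows, and ATTGG or CCAAT in 37.49%. These windows hold 250 bases before and 50 after a start site. The matches are descriptions of the reference sequence. No promoter sequence is shown for Rnf34 and Casp8.

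Of the 8 probe sets, Cftr was lower in congenic kidney (1.87-fold) and the dimmer probe set of Ripk1 was higher (1.65-fold), and these 2 passed an adjusted p of 0.05 in limma's test, fitted over all 31042 probe sets with Benjamini-Hochberg adjustment. That is 1 called in each direction, where 3.47% of all probe sets were called higher and 2.53% lower (6.00% either way). Rffl stood 1.14-fold higher at its brighter probe set and did not pass, Casp8 did not pass at either probe set, and Rnf34 stood at 1.01-fold. In 5 of the 8 the values of the strains did not overlap, as in 31.2% of all probe sets. The median log2 difference (congenic minus S) was 0.10 over the 8 and -0.02 over all probe sets. Counts this small do not set the members apart from other genes.

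**Figure D1:**
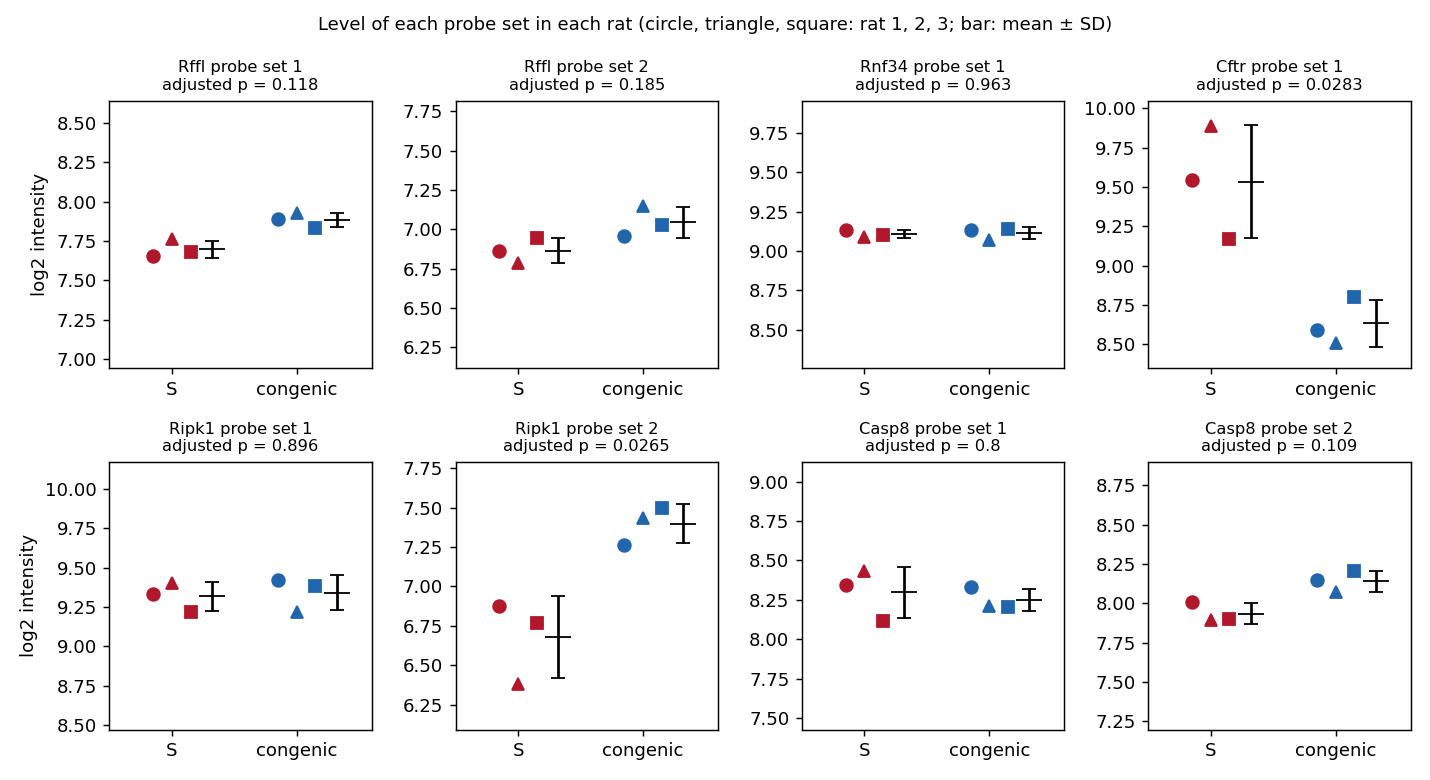
Log2 intensity (vertical axis, the same span in every panel) of each of the 8 probe sets in the 3 S rats (red) and 3 congenic rats (blue), with circles, triangles and squares for rats 1, 2 and 3 and black bars for mean ± SD. Cftr is lower and Ripk1 probe set 2 higher in all 3 congenic rats, while Rnf34 lies between 9.07 and 9.14 in all 6.

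The arrays differed between the strains in RNA quality, which bears on every value that follows. The measure is the signal at the 3′ end minus that at the 5′ end in control probe sets, averaged over Gapdh and beta-actin, and it grows with RNA breakage or incomplete labelling. On the log2 scale it was 1.56, 2.10 and 1.70 in S rats 1 to 3 and 1.26, 1.01 and 1.08 in congenic rats 1 to 3. The strains did not overlap (difference -0.67, exact permutation p = 0.1, two-sided, n = 3 each, the smallest p that 3 against 3 can give). S rat 2 also stood apart in several segment markers, with Calb1 of the distal tubule at 9.38 against 12.73 to 13.52 in the other 5 rats, and the podocyte genes Nphs1 at 5.67 against 6.90 to 8.87 and Wt1 at 5.05 against 6.89 to 8.10. The other podocyte markers measured, Podxl and Synpo, set that rat less apart. They were at 10.02 and 10.23 in S rat 2, close to 10.07 and 10.39 in S rat 3. Slc12a3, another distal marker, was at 9.50 in S rat 2 and at 11.73 to 12.42 in the others. Pvalb, also a distal marker, was at 5.39 in S rat 2 and at 5.32 to 5.61 in the others. These Pvalb values lie below the lower quartile of every array (5.88 or more), so they cannot show whether that rat stood apart. The tissue carried kidney markers in every rat, with uromodulin (Umod) between 14.62 and 14.76, and the mean level of 4 adrenal markers lay between 6.21 and 6.37 below the median of every array (7.47 or more). Array values have no read depth, and the number of rats limits the precision.

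Rffl, the ligase, was slightly brighter in congenic rats at both of its probe sets. Its brighter probe set was at 7.66, 7.76 and 7.68 in S rats 1 to 3 and at 7.89, 7.93 and 7.84 in congenic rats 1 to 3. All congenic rats lay above all S rats, with a gap of 0.07 between the closest. The means were 7.70 ± 0.05 and 7.88 ± 0.05 (log2, SD, n = 3), a log2 difference of 0.19 ± 0.06 (SE) that did not pass (limma, adjusted p = 0.118). With strain alone in the model the 95% interval of the fold was 1.03 to 1.26. With the RNA quality measure added, the interval of the log2 difference was wider, from -0.0056 to 0.577. The brighter probe set passed under 1 of 16 alternatives, array weights, which give less weight to more variable arrays (limma, adjusted p = 0.0495). In that setting 19.6% of all probe sets passed.

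The dimmer probe set of Rffl, below the array medians, was at 6.86, 6.79 and 6.94 in S rats 1 to 3 and at 6.96, 7.15 and 7.03 in congenic rats 1 to 3. The strains again did not overlap, but only 0.01 separated the highest S rat from the lowest congenic rat. The log2 difference was 0.18 ± 0.08 (SE; limma, adjusted p = 0.185). Within each rat the brighter lay above the dimmer by 0.84 ± 0.12 in S and by 0.84 ± 0.08 in the congenic group (log2 units, SD, n = 3; exact permutation p = 0.9, two-sided), so the distance between them hardly changed. With the RNA quality measure as a term in limma's model they parted, the brighter at 0.29 ± 0.13 (SE) and the dimmer at -0.0073 ± 0.14, and neither passed (adjusted p = 0.687 and 0.998).

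Rnf34, the paralogue of Rffl, showed no detectable difference between the strains. It was at 9.14, 9.09 and 9.10 in S rats 1 to 3 and at 9.13, 9.07 and 9.14 in congenic rats 1 to 3. The ranges overlap almost wholly. The log2 difference was 0.01 ± 0.06 (SE; limma, adjusted p = 0.963), and its 95% interval corresponds to 0.912-fold to 1.11-fold. Its sign turned under 5 of 16 alternatives, with values between -0.0091 and 0.03.

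Rffl and Rnf34 were then compared within each array, which asks whether the paralogues moved unequally. The brighter Rffl probe set minus the Rnf34 probe set was -1.48, -1.33 and -1.42 in S rats 1 to 3 and -1.24, -1.14 and -1.31 in congenic rats 1 to 3. The difference of probe sets has no meaning as a ratio of transcripts. A constant offset in brightness between the Rffl and Rnf34 probe sets cancels in its shift between strains. Whether the size of a log2 difference also depends on a probe set's brightness was not tested, so the shift may be affected by it. The shift was 0.18 in favour of Rffl, and no S rat reached a congenic rat (exact permutation p = 0.1, two-sided, n = 3 each, the smallest p the design allows). With the mean of both Rffl probe sets the shift was also 0.18.

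**Figure D2:**
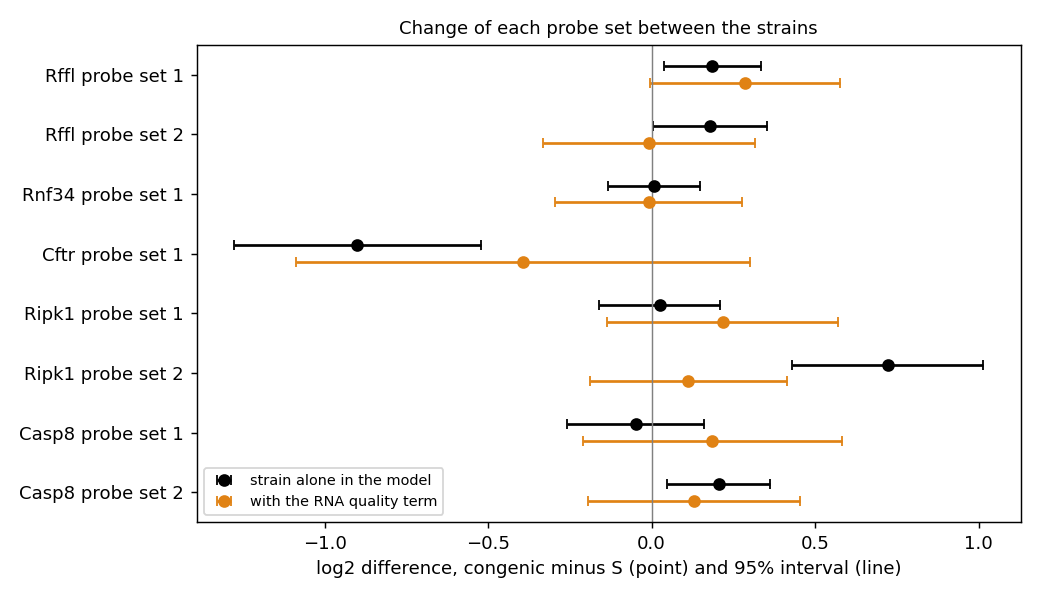
Log2 difference between the strains (congenic minus S, points) with its 95% interval (lines) for the 8 probe sets, in the model with strain alone (black) and with the RNA quality term added (orange). With strain alone the interval of Cftr runs from -1.28 to -0.52 and that of Ripk1 probe set 2 from 0.43 to 1.01, and with the term all 8 intervals include 0.

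Cftr, which encodes the cyclic AMP-regulated chloride channel of many epithelia, including kidney tubules, was the member with the widest difference. It was at 9.54, 9.89 and 9.17 in S rats 1 to 3 and at 8.59, 8.51 and 8.80 in congenic rats 1 to 3. Every congenic rat was lower than every S rat, by at least 0.37 log2 units, and the S rats spread more widely. The means were 9.53 ± 0.36 and 8.63 ± 0.15 (log2, SD, n = 3), a log2 difference of -0.90 ± 0.17 (SE; limma, adjusted p = 0.0283). The fold, S over congenic, was 1.87 with a 95% interval of 1.44 to 2.42.

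The highest Cftr value belonged to S rat 2, the rat with the highest 3′ minus 5′ difference and the low Calb1, Nphs1 and Wt1. Without that rat the log2 difference was -0.72 (adjusted p = 0.0299), and with array weights it was -0.63 (adjusted p = 0.0130). The call was lost without S rat 3, where the difference widened to -1.08 (adjusted p = 0.0758), and without congenic rat 1, 2 or 3 (-0.88, -0.84 and -0.98, adjusted p from 0.0719 to 0.117). Few or no probe sets of the 31042 passed in those settings: 0 without S rat 3 or congenic rat 2, 350 without congenic rat 1 and 8 without congenic rat 3. With the RNA quality term the difference was -0.39 ± 0.30 (SE; limma, adjusted p = 0.870). That term separates the strains itself, so it also widens the SE.

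Markers of the proximal tubule and the collecting duct were set beside Cftr as genes of tubule cells. Of 7 proximal tubule markers 2 rose and 5 did not pass. The 2 were Slc5a2 (1.67; limma, adjusted p = 0.0333) and Slc22a8 (1.65, adjusted p = 0.0265), both lowest in S rat 2. With the RNA quality term they stood at 0.60 and 0.59, and neither passed. The mean level of 6 principal cell markers was 10.89 to 11.02 in S and 10.93 to 11.05 in congenic rats, and none of the 6 passed. That mean covers moves in both directions. Fxyd4 stood at -0.41 (limma, adjusted p = 0.0686), without overlap and highest in S rat 2, while Hsd11b2 stood at 0.39 and Scnn1g at 0.29. The mean level of 5 intercalated cell markers was 8.47 to 9.12 in S and 9.10 to 9.18 in congenic rats. Of these, Aqp6, an intracellular aquaporin, was higher (0.58, adjusted p = 0.0356), but at 6.00 to 6.82 it lay below the array medians in every rat. Slc4a1, the anion exchanger of acid-secreting cells, was lower (-0.28, adjusted p = 0.0463). Slc26a4, the pendrin exchanger of bicarbonate-secreting cells, was lowest in S rat 2 (7.76), reached 9.65 in S rat 1 and lay between 9.46 and 9.51 in congenic rats. With the RNA quality term the median log2 difference went from 0.07 to -0.02 for the principal cell list and from 0.45 to -0.32 for the intercalated cell list, Slc26a4 standing at -1.19. The part of cell content in the Cftr difference was not tested.

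Ripk1, the kinase below the tumour necrosis factor receptor, differed in its 2 probe sets. The brighter was at 9.33, 9.40 and 9.22 in S rats 1 to 3 and at 9.42, 9.22 and 9.38 in congenic rats 1 to 3. The strains overlap, and the log2 difference was 0.02 ± 0.08 (SE; limma, adjusted p = 0.896), with a 95% interval of 0.894-fold to 1.16-fold.

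The dimmer Ripk1 probe set was at 6.88, 6.38 and 6.77 in S rats 1 to 3 and at 7.26, 7.44 and 7.50 in congenic rats 1 to 3. All congenic rats were higher by at least 0.38 log2 units, and S rat 2 was lowest. It rose by 0.72 ± 0.13 (SE, log2; limma, adjusted p = 0.0265), 1.65-fold with a 95% interval of 1.35 to 2.02. The values of all 6 rats lie below their array medians, and no detection call was used, so the fold of this probe set is uncertain.

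The 2 Ripk1 probe sets were compared within each rat. The brighter lay above the dimmer by 2.46, 3.02 and 2.45 in S rats 1 to 3 and by 2.16, 1.78 and 1.89 in congenic rats 1 to 3. The distance was shorter in every congenic rat, by 0.70 on average (exact permutation p = 0.1, two-sided, the smallest the design allows). The rise was thus seen at the dimmer probe set alone, and there it shrank to 0.11 ± 0.13 (SE; limma, adjusted p = 0.933) with the RNA quality term. Its call was also lost without S rat 3 (adjusted p = 0.0907) and without congenic rat 1, 2 or 3 (adjusted p from 0.0522 to 0.134). In those settings 0 to 350 of all probe sets passed. Without S rat 2 it held at 0.57 (adjusted p = 0.0227).

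Casp8, the initiator caspase recruited to death receptors, did not pass at either probe set. The brighter was at 8.34, 8.43 and 8.12 in S rats 1 to 3 and at 8.33, 8.21 and 8.21 in congenic rats 1 to 3, so that all congenic values fell within the S range (log2 difference -0.05 ± 0.09 SE; limma, adjusted p = 0.800). The dimmer was at 8.01, 7.89 and 7.90 in S rats 1 to 3 and at 8.15, 8.07 and 8.20 in congenic rats 1 to 3. There the strains did not overlap, with a gap of 0.06, and the log2 difference was 0.20 ± 0.07 (SE; limma, adjusted p = 0.109). With array weights, where 19.6% of all probe sets passed, it passed (adjusted p = 0.0221). The brighter lay above the dimmer by 0.36 ± 0.17 in S rats and by 0.11 ± 0.09 in the congenic group (log2 units, SD, n = 3), and here too no S rat overlapped a congenic rat (exact permutation p = 0.1, two-sided).

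**Figure D3:**
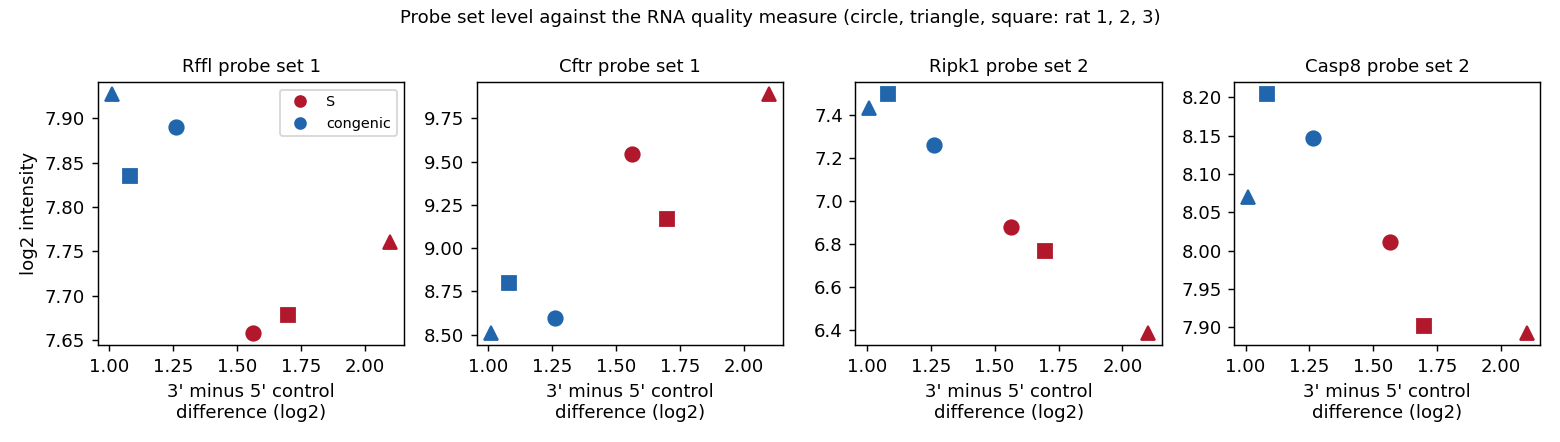
Log2 intensity of 4 of the probe sets (vertical axes) against each rat's 3′ minus 5′ control difference (horizontal axis, log2), with S rats in red and congenic rats in blue. S rat 2, at 2.10 on the horizontal axis, has the highest Cftr value and the lowest value of Ripk1 probe set 2 and Casp8 probe set 2, but the highest Rffl value of the S rats.

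Across the members, the measure of RNA quality therefore moved with the values in different ways. With the term in the model Cftr and Ripk1 probe set 2 moved toward 0, from -0.90 to -0.39 and from 0.72 to 0.11, while Rffl probe set 1 moved away from it, from 0.19 to 0.29. Of 31042 probe sets none passed with the term in limma's model, with 2292 at an unadjusted p under 0.05. The part of RNA quality in these differences cannot be told apart from that of the strain.

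Genes of the pathways around the members were read from lists with each gene taken at its brightest probe set, where 4.79% of all named genes were called, 2.12% higher and 2.67% lower. Of 38 measured genes of death receptor signalling 2 rose, none fell and 36 did not pass. Their median log2 difference was 0.0062 against -0.03 over all named genes. In limma's test 12 of the 38 were at an unadjusted p under 0.05, a larger share than the 3634 of all 14217 named genes. The strains did not overlap in 16 of the 38, against 4745 of all named genes. Whether these shares set the list apart was not tested. The list also holds genes of caspase activation after cytochrome c release, among them Apaf1, the scaffold of the apoptosome. Apaf1 was at 8.28, 7.70 and 7.98 in S rats 1 to 3 and at 8.84, 8.61 and 8.91 in congenic rats 1 to 3. It rose by 0.80 ± 0.14 (SE; limma, adjusted p = 0.0267), 1.74-fold, with no overlap. A dimmer Apaf1 probe set had a log2 difference of 0.21 (adjusted p = 0.174).

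Fas, the death receptor whose complex recruits Casp8, was at 6.43, 6.59 and 6.20 in S rats 1 to 3 and at 6.95, 6.80 and 6.89 in congenic rats 1 to 3. It rose by 0.48 ± 0.10 (SE; limma, adjusted p = 0.0372), 1.39-fold, with no overlap. These levels lie below the array medians, and the filter on dim probe sets removes this one. The other 2 probe sets of Fas, both dimmer, stood at -0.03 and 0.16 and did not pass (adjusted p = 0.866 and 0.148). Of 7 leukocyte markers 4 also rose, the mean level of the list being 9.65 to 9.83 in S and 9.93 to 10.03 in congenic rats. Of 4 fibroblast markers 3 rose, with a mean level of 9.95 to 9.99 in S and 10.64 to 10.72 in congenic rats, and of 5 fat markers 1 fell, the mean level of that list being 9.04 to 9.71 in S and lower in every congenic rat (from 8.49). The part of these cell types in the Fas value was not tested. With the RNA quality term Fas was at 0.79 and Apaf1 at 0.33, and neither passed (limma, adjusted p = 0.458 and 0.866). Both calls were lost without S rat 3 and without congenic rat 1, 2 or 3, settings in which 0 to 350 of all probe sets passed. That of Fas was also lost under quantile normalization (adjusted p = 0.0562).

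Of the genes whose products assemble with Ripk1 or Casp8, 5 named after their values were seen did not pass. Cflar, the caspase-like inhibitor that pairs with Casp8, stood at -0.25 ± 0.08 (SE; limma, adjusted p = 0.0987), and Tradd, an adaptor of the tumour necrosis factor receptor, at -0.19 (adjusted p = 0.194). Fadd, the adaptor that binds Casp8, stood at -0.08, the receptor Tnfrsf1a at 0.09, and Ripk3, the kinase of necroptosis, at 0.02. Other genes of the death receptor list differed in both directions without passing. Cyld stood at 0.40 (limma, adjusted p = 0.0739), Birc3 at 0.30 (adjusted p = 0.110) and Traf5 at -0.25 (adjusted p = 0.0925).

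Of 30 measured genes that handle CFTR on its way to and from the membrane, none passed in limma's test, with a median of 0.0079. At an unadjusted p under 0.05 were 6 of the 30, a smaller share than the 3634 of all 14217 named genes. The smallest p belonged to Canx, the chaperone calnexin of the endoplasmic reticulum (0.35 ± 0.09 SE, adjusted p = 0.0531), followed by Usp10, a deubiquitinase that acts on CFTR in endosomes (-0.27 ± 0.10 SE, adjusted p = 0.128). In both, the strains did not overlap. Of 21 measured genes for other reported targets of the 2 ligases, the mTORC2 kinase complex and ubiquitin activation and transfer, none passed either, with a median of -0.08. Here 3 of the 21 were at an unadjusted p under 0.05, again a smaller share than over all named genes. Rictor, the defining subunit of mTORC2, stood at -0.32 ± 0.08 (SE; limma, adjusted p = 0.0538) and Ube2n, a ubiquitin-conjugating enzyme, at -0.26 ± 0.07 (adjusted p = 0.0584). Prr5l, an mTORC2-associated protein reported as a substrate of Rffl, stood at -0.03, and Ppargc1a, the metabolic coactivator reported as a substrate of Rnf34, at -0.14.

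**Figure D4:**
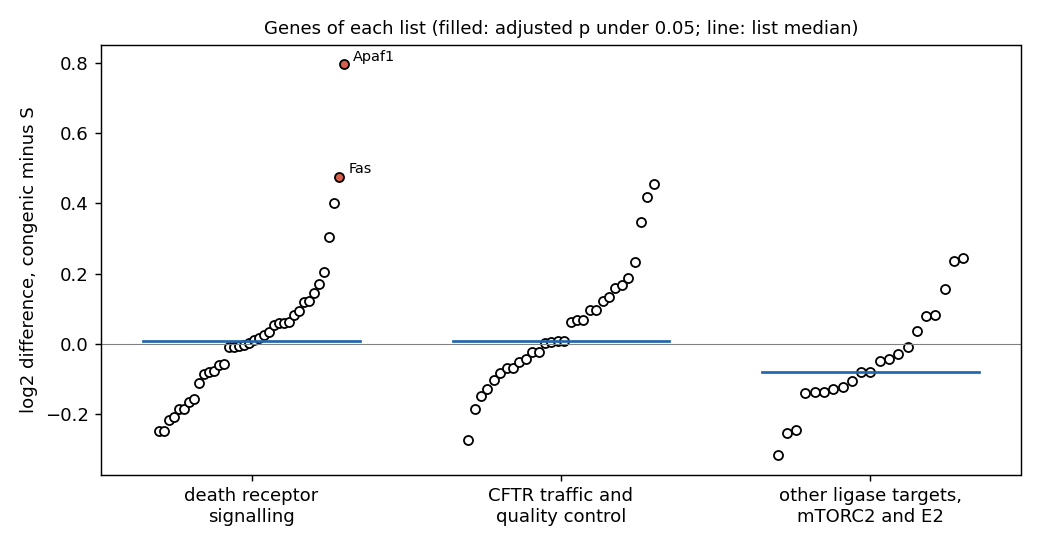
Log2 difference between the strains (vertical axis, congenic minus S) of each measured gene in the 3 lists, sorted within a list, with filled points for adjusted p under 0.05 and a line at the list median. Apaf1 (0.80) and Fas (0.48) are the filled points, and the medians lie between -0.08 and 0.0079.

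The genes with the profile most like that of Rffl over the 6 arrays, among 9798 genes above the median level, were Neto2, an auxiliary subunit of glutamate receptors (Pearson r = 0.988), Usp32, a deubiquitinase (0.981), and Eef1a1, a translation elongation factor (0.976). None of the 3 passed the test between strains (log2 differences 0.24, 0.06 and 0.03). For Cftr they were Nxf1, the main mRNA export factor (r = 0.997), Asmtl (0.994) and Ubtf, a factor of ribosomal RNA transcription (0.993), which stood at -0.11, -0.17 and -0.26 and did not pass. Over 6 arrays that differ in strain and RNA quality such values are easily reached: 11 genes had r above 0.95 with Rffl and 319 with Cftr. They are given as a description.

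**Figure D5:**
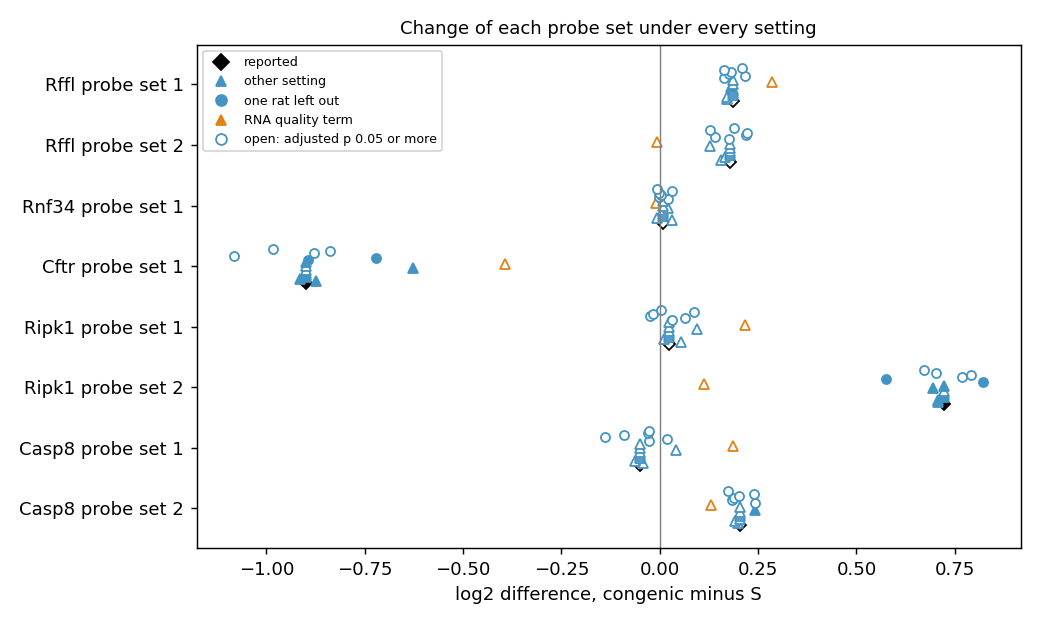
Log2 difference between the strains (horizontal axis, congenic minus S) of each probe set as reported (black diamond) and under every alternative setting, with circles for 1 rat left out, triangles for other settings, orange for the RNA quality term and open symbols for adjusted p of 0.05 or more. Cftr stays between -1.08 and -0.39 and Ripk1 probe set 2 between 0.11 and 0.82, while the values of Rnf34 lie between -0.0091 and 0.03.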

How the data were processed

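The authors deposited log2 intensities per probe set, which the values show to be on 1 scale across arrays. How they were summarised and normalized is not stated in the sources used here. Per the labels' protocols, total RNA of each kidney was labelled with biotin and hybridized to an Affymetrix rat expression array. From the 31099 probe sets, 57 controls were left out. Symbols came from the platform annotation, updated by Entrez identifier to RefSeq (GRCr8). The 31042 probe sets were fitted with limma 3.58.1 in R 4.3.3 (lmFit, eBayes, two-sided, Benjamini-Hochberg, adjusted p under 0.05), and the same method was tested on simulated data. Single values were compared over rats by exact permutation tests. For lists, the brightest probe set stood for a gene. Named list genes are up to 3 called in each direction, or the 2 with the smallest p. Cflar, Tradd, Fadd, Tnfrsf1a, Ripk3, Prr5l and Ppargc1a were named for their role after their values were seen, as were the comparisons between probe sets of 1 gene. Cyld, Birc3 and Traf5 were named for the size of their differences. The members and lists were chosen with earlier results of these data known. Promoter sequences are RefSeq's (GRCr8), found for 3 of the 5 genes. The alternatives changed the scaling (median centring or quantile normalization), the test (eBayes robust or with an intensity trend, no moderation, weights per array), the probe sets tested (none below percentile 40, or the brightest per gene), the model (rat number as block, or the RNA quality measure) and the rats (each left out in turn). Figures were drawn with matplotlib 3.10.9.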

Additional observations from a re-analysis of the deposited data

How the results depend on the processing

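Of the members, 2 probe sets passed as reported, as they did under quantile normalization, median centring, the intensity filter, the intensity trend and robust eBayes. The count was 0 with the unmoderated test and with the RNA quality term, 4 with array weights, 1 when each gene was tested at its brightest probe set alone (where Ripk1 probe set 2 is not tested), and 0 to 2 when 1 rat was left out. The 2 called list genes became 4 with the filter, which drops Fas. Those were Apaf1 of the death receptor list, 1 CFTR handling gene and 2 lower genes of the third list. The count was 5 with the intensity trend, 16 with array weights, and 0 with the unmoderated test or the RNA quality term. When 1 rat was left out it was 0 to 12, 12 being without S rat 1. Over all probe sets the calls ran from 0 without S rat 3 or congenic rat 2 (6968 and 5575 at an unadjusted p under 0.05) to 6077 with array weights. The share of all probe sets called was 6.00% as reported, 10.6% with the filter, 8.58% with the intensity trend and 19.6% with array weights. Without S rat 1 it was 15.3%. The counts of members and list genes are to be read beside these shares.

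Each cage held 1 rat of either strain, but which rats shared a cage is not given in the labels used here, and the cage is in no model. Whether the rat number pairs the samples is not known. Rats of the same number had deviations from their strain means that correlated at -0.01, -0.18 and -0.14. Rats of different numbers had -0.25 to 0.38. With 3 rats per strain such correlations cannot tell which rats shared a cage. With the replicate block 1 member probe set and 1 list gene passed, Cftr at -0.90 having an adjusted p of 0.0540.

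Signs turned only in values that did not pass. Rffl probe set 2 was at -0.0073 with the RNA quality term. When 1 rat was left out, Rnf34 ran from -0.0063 to 0.0303, Ripk1 probe set 1 from -0.0249 to 0.0862 and Casp8 probe set 1 from -0.139 to 0.0195. Rnf34 was at -0.0067 with median centring and -0.0091 with the RNA quality term. Casp8 probe set 1 was at 0.0416 with array weights and 0.186 with the RNA quality term. The cause was not tested. The Rffl minus Rnf34 shift was 0.13 to 0.22 and the RNA quality difference -0.78 to -0.51 when 1 rat was left out. Signal below the array medians limits Fas and Aqp6, and Rffl and Ripk1 at their dimmer probe sets.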
